A study of Schmidtea mediterranea with 32 samples.

Results

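Whole-animal poly(A) RNA of the planarian flatworm Schmidtea mediterranea was compared between nhr-1 RNAi and control RNAi after 4 feedings, the earliest of the sampled time points. The comparison holds 8 of the 32 libraries of the study, 4 under nhr-1 RNAi and 4 under control RNAi, chosen by the RNAi and the number of feedings in their titles and descriptions. In both groups the replicates are named 1, s1, s2 and s3. All animals of both groups were of the sexual biotype labelled Sexual S2F2, and the control RNAi is labelled UNC. Groups with the same RNAi and biotype at 6, 8 and 11 feedings, of 4 libraries each except for 3 controls at 6, shared the fit and show what became of each contig later. The labels give no age, no dose of double-stranded RNA and no number of animals per library. They also do not say whether replicates were separate cultures or animals. The p-values thus measure differences against the spread between libraries, estimated over all groups of the fit, and this spread may be technical. Whole animals were extracted, so fewer cells of a type and less RNA per cell cannot be told apart in any value below.

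Nuclear hormone receptors are transcription factors, many of which bind a small lipophilic molecule such as a steroid and then change the transcription of their target genes. In planarians, RNAi is commonly given by feeding double-stranded RNA with the food, so that repeated feedings prolong the knock-down. Sexual planarians are hermaphrodites whose testes, ovaries and accessory glands arise after hatching and regress when the animal starves, and nhr-1 is known as a receptor that this reproductive system needs. The question at 4 feedings is which transcripts changed before the broad loss seen with more feedings. Levels are given in CPM, counts scaled to a common library size by the TMM method, and a contig is 1 assembled transcript sequence. Contigs with the prefix SmedSXL, read here as those of a sexual-animal assembly, were counted, because many transcripts also have a contig in the second assembly of the table. The contigs carry no gene names, so none is assigned a function, and nhr-1 transcript was not analysed here.

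The nhr-1 libraries held 11179167 to 16902601 counts and the control libraries 12658465 to 16714547, of which the SmedSXL contigs took 43.9% to 48.5% and 46.3% to 49.0%. The 69913 SmedSXL contigs that did not pass the filter on low counts held 0.764% of the SmedSXL counts of these libraries. Libraries differed in composition within both groups. The most abundant contig, SmedSXL_088910, took 8.91%, 17.4%, 36.9% and 17.5% of the SmedSXL counts in nhr-1 replicates 1, s1, s2 and s3, against 9.89%, 23.5%, 14.0% and 22.7% in the controls of the same names. On the first principal component of the 8 libraries, which carried 62.6% of the variance, nhr-1 replicates stood at -83.7, -20.8, 101.7 and -19.8 and controls at -43.1, 53.2, -28.2 and 40.7. This axis did not separate the groups, and nhr-1 replicate s2 and control replicate s1 were the highest of their groups on it. Results that rest on these libraries are given with and without them below.

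At 4 feedings 85 SmedSXL contigs fell under nhr-1 RNAi and 0 rose. These were 0.356% and 0% of the 23870 SmedSXL contigs tested, by the quasi-likelihood test of edgeR with Benjamini-Hochberg adjustment, at an adjusted p under 0.05. The called falls were deep, which is partly built in, since small differences pass the test less readily at this spread. The median log2 fold change of the 85 contigs was -3.72, with a range of -7.17 to -1.24, against a median of -0.02 over all tested contigs. All 85 were at least 2-fold lower, 74 at least 4-fold, 56 at least 8-fold, 39 at least 16-fold and 22 at least 32-fold. At an unadjusted p under 0.05, 579 contigs (2.43%) were lower and 380 (1.59%) higher. Contigs in both directions thus reached an unadjusted p under 0.05, and the adjusted calls were all in 1 direction. DESeq2 called 131 contigs lower, all 85 among them, and 4 higher, and limma's voom with quality weights called 121 lower, 56 of the 85 among them, and 0 higher. The balance at an unadjusted p under 0.05 moved with the method. It was 503 lower and 611 higher by DESeq2, and 1368 lower and 558 higher by voom. By fold change alone, 2.04% of all tested contigs were at least 2-fold lower and 3.82% at least 2-fold higher.

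The number of calls depended on single libraries. It was 11 without nhr-1 replicate 1, 15 without nhr-1 replicate s1, 23 without nhr-1 replicate s3 and 27 without control replicate s1. Leaving out another control moved it less, to 68 without control replicate 1, 73 without control replicate s2 and 91 without control replicate s3. Without nhr-1 replicate s2 it was 104, and 55 without both nhr-1 replicate s2 and control replicate s1. A fit of the 8 libraries alone, which estimates the spread from these libraries only, called 1 contig, SmedSXL_005521. What the s in the replicate names stands for is not given in the labels, so the names were also treated as a possible batch. Among the libraries named with s alone 5 contigs were called, all lower and all among the 85, and in each of the 5 nhr-1 replicate 1 was below control replicate 1, as it was in 54.8% of all tested contigs.

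Most of the 85 contigs were above the middle of all tested contigs in control animals. This is partly built in, since a fall can be called only where the controls hold counts, and tested contigs reach down to a control mean of 0 CPM. Their median control level was 12.04 CPM per kilobase of contig, against 3.13 CPM per kilobase over all tested contigs, and 67 of the 85 were above 3.13 CPM per kilobase. They were also shorter, with a median length of 858 bases and a range of 201 to 2697, against a median of 1142 bases. Their control mean was under 1 CPM for 6 contigs, 1 to 10 CPM for 39, 10 to 100 CPM for 31 and over 100 CPM for 9. No contig was at 0 counts in all nhr-1 libraries, and 10 held 1 to 3 counts over the 4 of them.

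For 64 of the 85 contigs every nhr-1 library lay below every control library, a separation found for 336 (1.41%) of all tested contigs. In the other 21 contigs the groups overlapped, and the lowest control library was replicate s3 in every one of these 21. Without control replicate s3, none of the 85 overlapped. Among the nhr-1 libraries, replicate s2 was the highest for 56 of the 85 contigs and replicate 1 the lowest for 57. Over all tested contigs, nhr-1 replicate s2 was the highest for 35.4% and nhr-1 replicate 1 the lowest for 35.0%. In the controls, replicate s1 was the highest for 54 of the 85 and replicate s3 the lowest for 47, against 26.6% and 19.7% of all tested contigs. Control libraries thus differed among themselves in the contigs that fell, and the part of that spread in the falls was not tested. Some of the contigs also moved as a block: 24 pairs, made up of 16 contigs, correlated at r over 0.99 across the 31 libraries of the fit, and joining such pairs left 73 groups, the largest of 10 contigs.

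**Figure D1:**
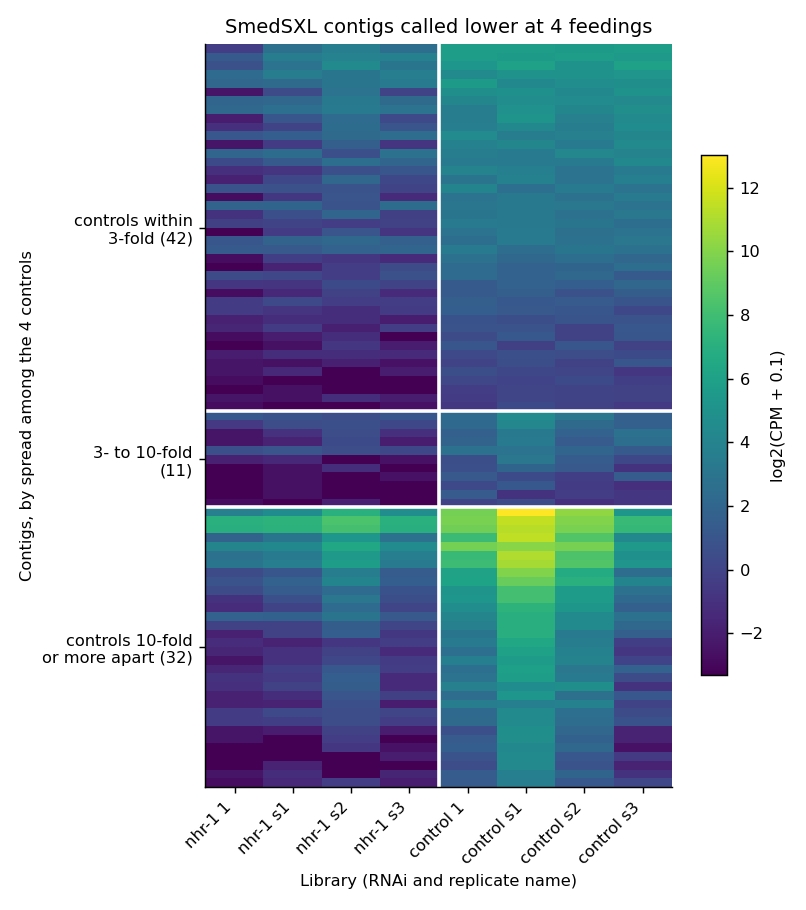
Each row is 1 of the 85 SmedSXL contigs called lower at 4 feedings and each column 1 library, nhr-1 RNAi on the left and control RNAi on the right; the colour is log2(CPM + 0.1). In the 42 contigs of the upper block the 4 controls lie within 3-fold of each other, whereas in the 32 contigs of the lower block control replicate s1 is mostly the brightest and control replicate s3 the dimmest.

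The spread among the controls divided the contigs. This division was made after the values were seen and gets no test. In 42 contigs the highest control was less than 3-fold above the lowest, in 11 it was 3- to 10-fold above, and in 32 it was 12.4- to 275-fold above. The 42 contigs with narrow controls had a median level of 0.369, 0.929, 1.60 and 0.907 CPM in nhr-1 replicates 1, s1, s2 and s3, against 7.66, 9.85, 7.12 and 7.34 CPM in the controls of the same names. Here the medians of the groups were far apart in every library, though in some single contigs the groups came close. All 42 contigs were without overlap, and the median log2 fold change was -2.74. The 32 contigs with wide controls had a median level of 0.393, 0.796, 2.69 and 0.718 CPM in the nhr-1 libraries, against 12.5, 75.2, 15.2 and 2.51 CPM in the controls. The median of nhr-1 replicate s2 was thus above that of control replicate s3. In this set 11 contigs were without overlap, the median log2 fold change was -5.10, control replicate s1 was the highest control for 30 contigs and control replicate s3 the lowest for all 32.

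The sets also differed in how their calls depended on single libraries. They were split on the control values, and control replicate s1 was the highest control for 30 of the 32 wide contigs. The dependence on the controls, and the lack of overlap in the narrow set, thus follow in part from the split. Without control replicate s1, 20 of the 42 narrow and 3 of the 32 wide contigs were still called. Without control replicate s3 these numbers were 29 and 32, and without nhr-1 replicate s2 38 and 31. Leaving out nhr-1 replicate 1, s1 or s3 kept 11, 12 or 18 of the narrow contigs and 0, 1 or 3 of the wide ones. With limma's voom, 37 of the 42 and 11 of the 32 were called.

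At later time points the contigs were still low. Those libraries are not part of the contrast at 4 feedings, but they shared its filter, scaling and estimate of the spread. Of the 85, 73 were lower at 6 feedings, 85 at 8 and 85 at 11, where 12.1%, 14.1% and 24.7% of all tested SmedSXL contigs were lower, and 0 were higher at any of them, where 0.545%, 0.909% and 6.68% of all tested were. With a replicate block by name, 74, 85 and 84 of the 85 were lower. Over all tested, the lower contigs then numbered 2650 in place of 2878 at 6 feedings and 3334 in place of 3362 at 8. At 11 feedings they numbered 4763 in place of 5894. The higher contigs over all tested numbered 76 in place of 130 at 6 feedings and 2431 in place of 1595 at 11. The 85 contigs had a median log2 fold change of -4.26 at 6 feedings, -6.13 at 8 and -7.32 at 11. In the 42 contigs with narrow controls the change over feedings was in the nhr-1 libraries. Their median level ranged over the nhr-1 libraries from 0.369 to 1.60 CPM at 4 feedings, 0.103 to 0.320 at 6, 0.0595 to 0.346 at 8 and 0.127 to 0.149 at 11. Over the control libraries it ranged from 7.12 to 9.85 CPM at 4 feedings, 4.95 to 7.93 at 6, 6.31 to 9.44 at 8 and 5.69 to 9.17 at 11. All 42 were lower at 6, 8 and 11 feedings.

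In the 32 contigs with wide controls the nhr-1 libraries had median levels of 0.393 to 2.69 CPM at 4 feedings, 0.205 to 0.681 at 6, 0.357 to 1.19 at 8 and 0.269 to 0.481 at 11. The controls had 2.51 to 75.2 CPM at 4 feedings, 7.11 to 7.77 at 6, 10.3 to 97.7 at 8 and 22.2 to 117 at 11. The control ranges at 8 and 11 feedings reached far above that at 6, and the control named 1 was the lowest control at both 8 and 11. Of these 32 contigs, 24 were lower at 6 feedings and all 32 at 8 and at 11. Of all tested contigs 12.1%, 14.1% and 24.7% were lower at these time points. The difference between the effects at a later time point and at 4 feedings was tested in the same edgeR fit. Since the contigs were chosen on the values at 4 feedings, which also enter that difference, the counts are a description. The effect was more negative at 6 feedings for 5 of the 42 narrow and 0 of the 32 wide contigs, at 8 feedings for 16 and 0, and at 11 feedings for 26 and 4, and it was more positive for none of the 85 at any time point. Over all tested contigs it was more negative for 1.09%, 4.08% and 8.71% at 6, 8 and 11 feedings. It was more positive for 0.0335%, 0.0335% and 0.448% of them.

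**Figure D2:**
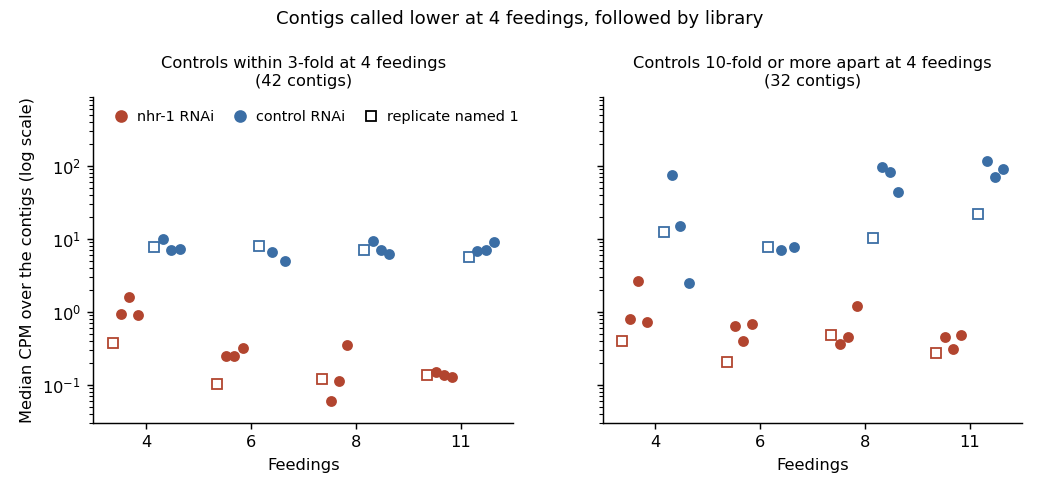
Median CPM over the contigs in each library, on a log axis, against the number of feedings, for the 42 contigs with narrow controls (left panel) and the 32 with wide controls (right panel); within each number of feedings the nhr-1 libraries stand left of the controls, and open squares are replicates named 1. On the left the controls stay between 4.95 and 9.85 CPM while the nhr-1 libraries are highest at 4 feedings, and on the right the controls themselves spread from 2.51 to 117 CPM.

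SmedSXL_005521, a contig of 2697 bases, was singled out after its values were seen, as the 1 contig called by the fit of the 8 libraries alone. Its level was 0.739, 0.929, 0.672 and 0.832 CPM in nhr-1 replicates 1, s1, s2 and s3, against 10.3, 9.85, 7.98 and 6.01 CPM in the controls of the same names. Replicates of each group lay close together and the groups were far apart, with means of 0.793 ± 0.112 CPM under nhr-1 RNAi and 8.53 ± 1.95 CPM in the control (SD, n = 4 each). On the log2 scale this is a difference of -3.39 ± 0.333 (SE), with an edgeR adjusted p of 1.63e-06. It was called in all 21 alternatives of the processing that gave it a value, with adjusted p from 1.8e-16 to 0.0131. At 6, 8 and 11 feedings its effect was -3.64, -4.06 and -3.14 on the log2 scale. The nhr-1 level of SmedSXL_005521 was 9.30% of the control at 4 feedings, 7.99% at 6, 5.97% at 8 and 11.5% at 11, and the difference from the effect at 4 feedings did not pass at 6, 8 or 11 (edgeR adjusted p = 1.0, 0.831 and 0.985).

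SmedSXL_010935, of 1727 bases, had the highest control level among the contigs without overlap. It stood at 1.20, 2.59, 5.21 and 1.66 CPM in nhr-1 replicates 1, s1, s2 and s3, against 34.5, 286.7, 52.6 and 7.09 CPM in the controls. The controls spread widely, and control replicate s3 was close above nhr-1 replicate s2. The means were 2.67 ± 1.79 CPM under nhr-1 RNAi and 95.2 ± 129 CPM in the control (SD, n = 4 each), which gave a log2 fold change of -5.23 with an SE of 0.871 (edgeR adjusted p = 0.0056). Without control replicate s1 the log2 fold change of SmedSXL_010935 was -3.67 and the contig was still called. The call was lost in 4 of 21 alternatives, with adjusted p over all of them from 1.05e-08 to 0.607 in edgeR and the other tools. The fold change stayed at -5.18 with only the groups compared, -5.21 among libraries named with s, -4.28 with a replicate block and -4.96 without nhr-1 replicate 1, which are these 4. At 6 feedings it held 0.410 to 1.44 CPM in the nhr-1 libraries and 20.2 to 32.9 CPM in the controls, a log2 fold change of -4.66, followed by -7.17 at 8 and -8.01 at 11 feedings.

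SmedSXL_089239, of 547 bases, had the most negative fold change among contigs without overlap and with a control mean of at least 1 CPM. It held 0, 0, 0 and 2 counts in nhr-1 replicates 1, s1, s2 and s3, against 26, 205, 34 and 8 counts in the controls. Counts were at or near 0 in all nhr-1 libraries, and control replicate s1 held most of the control counts. With the counts of each group pooled, the ratio of control to nhr-1 RNAi was 139.7, with a 95% exact binomial counting interval of 38.3 to 1159 that covers counting error only. The fit gave SmedSXL_089239 a log2 fold change of -7.17 with an SE of 1.38 (edgeR adjusted p = 0.016). The call was lost in 7 of 20 alternatives, among them the fits without control replicate s1 (log2 fold change -5.07) and without nhr-1 replicates 1, s1 and s3 in turn, and the adjusted p ranged from 4.17e-07 to 0.455.

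**Figure D3:**
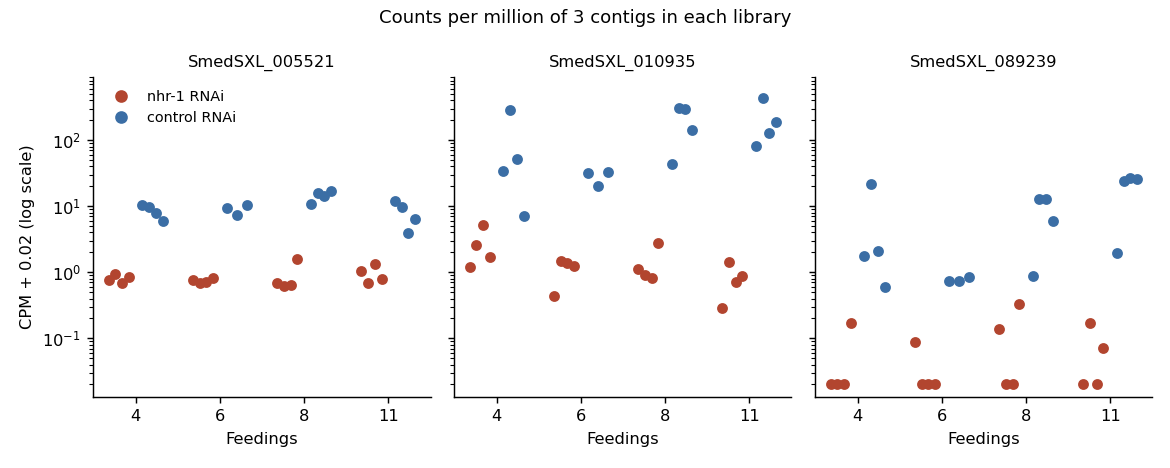
CPM + 0.02 on a log axis in each library, against the number of feedings, for 3 contigs; nhr-1 libraries stand left of the controls. For SmedSXL_005521 the nhr-1 libraries at 4 feedings lie between 0.672 and 0.929 CPM and the controls between 6.01 and 10.3 CPM, whereas the controls of SmedSXL_010935 and SmedSXL_089239 spread widely within a time point.

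No SmedSXL contig passed the test upward at 4 feedings. Every nhr-1 library lay above every control library for 115 contigs (0.482% of those tested). SmedSXL_015096, of 707 bases, had the largest fold change of the contigs that the naming rule allowed in this direction. It had 2.45, 1.33, 0.336 and 0.983 CPM in nhr-1 replicates 1, s1, s2 and s3, against 0, 0.214, 0.183 and 0.286 CPM in the controls. Its log2 fold change was 2.98 (SE 0.870), and it did not pass the adjusted test (edgeR adjusted p = 0.312). It passed in 1 of 20 alternatives, with no filter on low counts (edgeR adjusted p = 0.0288), and the adjusted p reached 1.0 in others. At 6 feedings the same contig had means of 1.32 ± 0.671 CPM under nhr-1 RNAi (SD, n = 4) and 0.830 ± 0.670 CPM in the control (SD, n = 3). The nhr-1 level of SmedSXL_015096 was thus much the same at both time points, and the control level was the lower one at 4 feedings. SmedSXL_017045, of 2087 bases, had 2.26, 1.06, 0.672 and 1.13 CPM in nhr-1 replicates 1, s1, s2 and s3, against 0.0672, 0.321, 0.244 and 0.358 CPM in the controls. Its log2 fold change of 2.44 (SE 0.743) did not pass either (edgeR adjusted p = 0.394), and at 6 feedings it was 0.03.

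Among 493 further sequences with accession-style identifiers edgeR called 0 at 4 feedings (0%), with 14 lower (2.84%) and 7 higher (1.42%) at an unadjusted p under 0.05. The 1 sequence called higher in the whole table was SmedASXL_003061, a 278-base contig of the second assembly, named here after its values were seen. It was 1 of the 21399 SmedASXL contigs tested (0.00467%), of which 52 (0.243%) were called lower. SmedASXL_003061 held 28, 22, 15 and 6 counts in nhr-1 replicates 1, s1, s2 and s3, against 0, 1, 0 and 0 counts in the controls. Every nhr-1 library was above the controls, and the fitted log2 fold change was 5.67 with an SE of 1.02 (edgeR adjusted p = 0.00946). The call was lost in 1 of 18 alternatives, among libraries named with s alone (log2 fold change 5.38, edgeR adjusted p = 0.0931), and without control replicate s1 the controls held 0 counts. Its level under nhr-1 RNAi was highest at 4 feedings. It held 1 to 12 counts in the nhr-1 libraries and 1 or 2 counts in the controls at 6 feedings, where the effect was 2.44 on the log2 scale (edgeR adjusted p = 0.119). At 8 and 11 feedings the log2 fold changes were 0.25 and -1.71, and neither passed. The effect of SmedASXL_003061 at 11 feedings was lower than at 4 feedings by a tested difference of -7.38 on the log2 scale (edgeR adjusted p = 0.0095). Its most alike SmedSXL contig over the 31 libraries correlated at r = 0.72, and none was over 0.95.

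By the fitted fold changes, most contigs lost later were already slightly lower at 4 feedings. They share the same libraries, so a share of contigs does not count independent replicates. In the typical contig, control replicate s1 lay within the nhr-1 range, as given by library below. At both 8 and 11 feedings 3144 SmedSXL contigs (13.2% of those tested) were lower. The libraries of 4 feedings are not part of those contrasts, but they shared the filter, scaling and estimate of the spread. At 4 feedings 85 of the 3144 passed the test, so that every contig called at 4 feedings was in this later set. The median log2 fold change of the 3144 at 4 feedings was -0.43, and 80% of them lay between -1.06 and -0.15. Below 0 were 3031 of them (96.4%), against 51.7% of all tested contigs. Most of these differences were small, since 10.8% were at least 2-fold lower, against 2.04% of all tested contigs. In 172 of the 3144 contigs (5.47%) every nhr-1 library was below every control library, against 1.41% of all tested contigs. Of these 172, 64 were among the 85 called at 4 feedings. In 0 of the 3144 was every nhr-1 library above every control library, against 0.482% of all tested. The median for the same 3144 contigs was -2.08 at 6 feedings, -2.34 at 8 and -2.49 at 11, so that the largest step of the median was between 4 and 6 feedings.

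The shift at 4 feedings was graded by the size of the later fall. The 178 contigs whose log2 fold change at 8 feedings was -5 or lower had a median of -2.94 at 4 feedings, and 57 of them were called there. The 84 contigs between -5 and -4 at 8 feedings had a median of -1.62 at 4 feedings, with 13 called. The medians at 4 feedings were -0.54, -0.43, -0.35 and -0.24 for the 378, 1559, 981 and 182 contigs in the next 4 steps of 1 log2 unit, with 8, 5, 2 and 0 called. Of the 85 contigs called at 4 feedings, 70 were thus among the 262 that were at least 16-fold lower at 8 feedings. The share called was highest, at 57 of 178, in the group with the deepest later fall. In the next steps it was 15.5%, 2.12%, 0.321%, 0.204% and 0%, against 0.356% of all tested contigs. Calls were thus more frequent than over all tested contigs only where the log2 fold change at 8 feedings was -3 or lower. In each of the 6 steps between 93.4% and 98.9% of contigs were below 0 at 4 feedings.

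**Figure D4:**
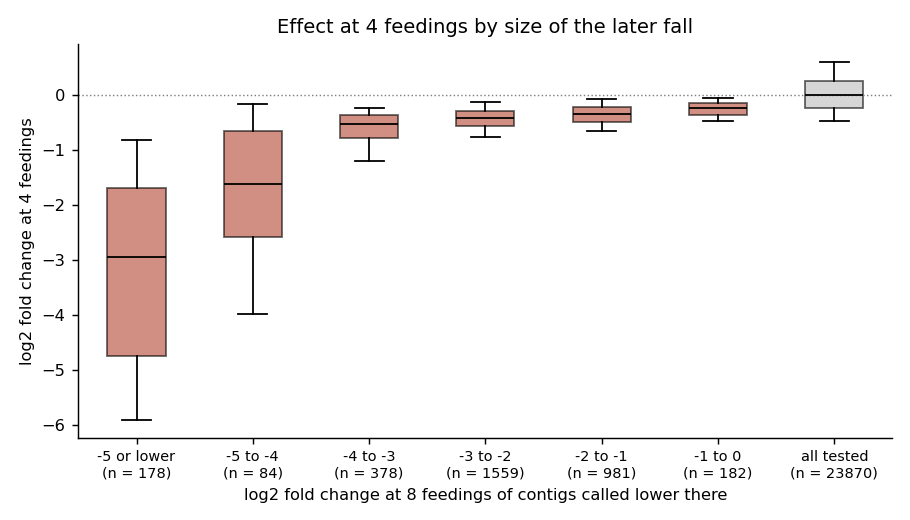
Log2 fold change at 4 feedings (vertical axis) of the SmedSXL contigs called lower at 8 feedings, in 6 groups by their log2 fold change at 8 feedings, beside all 23870 tested contigs in grey; lines are medians, boxes span the quartiles, and whiskers reach the percentiles 10 and 90. The median is -2.94 in the group with the deepest later fall, -0.24 in the group with the smallest and -0.02 over all tested contigs.

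Read by library, the shift was uneven. Summed over the 3144 contigs, nhr-1 replicates 1, s1, s2 and s3 held 26407, 30017, 40659 and 39807 CPM, against 57764, 57952, 56854 and 51047 CPM in the controls. The sums of the groups did not overlap, with means of 34223 ± 7103 CPM under nhr-1 RNAi and 55904 ± 3274 CPM in the control (SD, n = 4 each). In control replicate s1 a large part of the sum came from few contigs. Without the 10 contigs with the highest control levels, which made up 17.6% of the control sum, the nhr-1 libraries held 25496, 28578, 37248 and 38006 CPM, against 52076, 34665, 49922 and 47634 CPM in the controls. Control replicate s1 then lay inside the nhr-1 range. The typical contig showed the same: its level, as the median percent of the control mean, was 55.9%, 65.2%, 76.0% and 89.9% in nhr-1 replicates 1, s1, s2 and s3, against 110.9%, 59.8%, 110.5% and 105.1% in the controls. Control replicate s1 was thus below nhr-1 replicates s1, s2 and s3 in the typical contig lost later. The median log2 fold change of the 3144 contigs at 4 feedings was -0.64 without control replicate s1, -0.68 without both it and nhr-1 replicate s2, and -0.23 among libraries named with s alone.

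**Figure D5:**
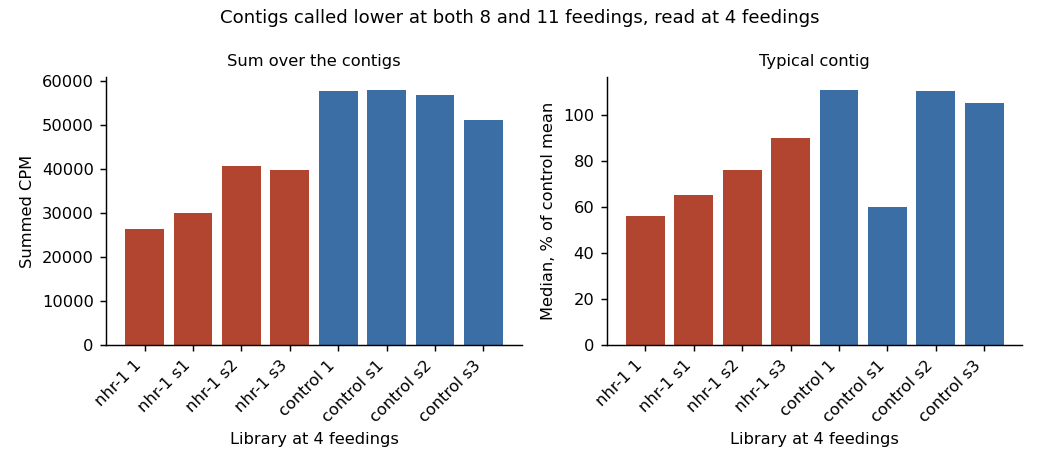
The 3144 SmedSXL contigs called lower at both 8 and 11 feedings, in each library at 4 feedings, as bars of summed CPM (left panel) and of the median level as a percent of the control mean (right panel), nhr-1 RNAi first. The nhr-1 sums of 26407 to 40659 CPM are all below the control sums, while the median of control replicate s1, at 59.8%, lies within the nhr-1 range of 55.9% to 89.9%.

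By the time of their first call, the contigs lower at any time point split into 85 at 4 feedings, 2805 at 6, 648 at 8 and 2625 at 11. Their median log2 fold changes at 4 feedings were -3.72, -0.41, -0.44 and -0.09. Contigs first called at 11 feedings were thus close to the median of all tested contigs at 4 feedings. Their medians were -0.02 at 6 feedings and -0.23 at 8. The control libraries of 11 feedings differed in composition, with SmedSXL_088910 at 28826, 76188, 538649 and 579073 CPM in replicates 1, s1, s2 and s3. The part of this difference in the calls at 11 feedings was not tested. Of the 272 contigs without overlap at 4 feedings that were lower but not called, 84 (30.9%) were called lower at 6 feedings, 113 (41.5%) at 8 and 143 (52.6%) at 11, against 12.1%, 14.1% and 24.7% of all tested contigs. Called higher were 3 of them (1.10%) at 6 feedings, 1 (0.368%) at 8 and 7 (2.57%) at 11, against 0.545%, 0.909% and 6.68% of all tested. The 129 contigs (0.54%) higher at both 8 and 11 feedings had a median log2 fold change of 0.14 at 4 feedings, against -0.02 over all tested contigs. Of the 129, 97 (75.2%) were above 0, against 48.3% of all tested, 9 (6.98%) had every nhr-1 library above every control, against 0.482%, and 0 were called.

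The growth of the effect after 4 feedings was tested in the same fit. Against 4 feedings, the effect at 6 feedings was more negative for 261 SmedSXL contigs (1.09%) and more positive for 8 (0.0335%). At 8 feedings it was more negative for 974 (4.08%) and more positive for 8 (0.0335%), and at 11 feedings for 2080 (8.71%) and 107 (0.448%). The tested differences thus ran mostly toward a deeper fall. The total at 6 feedings, 269 contigs, depended on single libraries: it was 7 without nhr-1 replicate s3 of 4 feedings or without control replicate 1 of 6 feedings and 502 without nhr-1 replicate s2 of 4 feedings, and 0 in a fit of the 4 groups alone.

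The contigs that fell at 4 feedings were also looked up in the second assembly. As a counterpart was taken any SmedASXL contig with a total count no more than 5% away and with log2 CPM values that correlated at r over 0.95 across the 31 libraries. Such a match existed for 42 of the 85 contigs (49.4%), for 56.4% of the 3059 contigs lower at both 8 and 11 feedings but not called at 4, and for 59.0% of all tested contigs. At a control mean under 1 CPM these shares were 0 of 6 contigs, 2.55% and 15.5%. At 1 to 10 CPM they were 41.0%, 45.9% and 66.6%, and at 10 to 100 CPM 58.1%, 86.6% and 89.4%. Above 100 CPM they were 8 of 9 contigs, 67.7% and 90.2%. Against the contigs lost later, the share of the contigs that fell at 4 feedings was thus close at 1 to 10 CPM and lower at 10 to 100 CPM. Above 100 CPM, with 9 contigs, it was higher. The match used correlations over the same libraries, and these differences were not tested.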

How the data were processed

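Poly(A) RNA of whole sexual planarians was sequenced, and the deposited file is 1 table of raw read counts on 177783 reference sequences for 32 libraries, used as the authors deposited them. Bowtie2 is named, per the submitters' processing notes, without a version. The program that counted reads and its handling of strand are not stated in the sources used here. Each sequence has an identifier and a length beside its counts, per the file headers. A row without a sequence name held 0 counts and was left out, and 0 columns were left unused. Groups came from the titles. The control labelled 7 feedings entered no comparison.

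Counts were tested with edgeR 4.0.16 (R 4.3.3) by its quasi-likelihood test, with TMM scaling and filterByExpr (minimum count 10, minimum total 15). The fit took 45762 sequences and 31 libraries, with 1 mean per group and no covariate, and Benjamini-Hochberg adjustment ran over all 45762. SmedSXL contigs were then counted, since a read can be counted on more than 1 assembly. Standard errors were derived from each fold change and its F statistic. Principal components used log2(CPM + 1). The scripts were tested on simulated data. DESeq2 1.42.0 and limma 3.58.1 were alternatives, as were other scalings, filters and library sets. The members and lists were chosen with earlier results of these data known.

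Because the identifiers carry no gene names, the naming rule allowed 2 contigs that fell and 2 that rose, without overlap between the groups and with a mean of at least 1 CPM in the higher group: the most negative fold change, the highest control level, and the largest rises with an unadjusted p under 0.05. SmedSXL_005521 and SmedASXL_003061 were named after their values were seen, and SmedSXL_088910 for its share of the libraries. Replicate names were checked for pairing by the correlation of deviations from the group means. At 4 feedings these ranged from -0.605 to 0.366, so the names were not taken as pairs there. The 3 shared names at 6 feedings (0.209 to 0.547) and the 3 at 11 (0.175 to 0.406) were all over 0.1 and were taken as pairs, those at 11 by title only. At 8 feedings (0.00647 to 0.259) they were not. The values given are from the fit without pairs at every time point, so the p-values at 6 and 11 feedings ignore that pairing. The fit with a replicate block, an alternative, blocks by name at every time point, also at 4 and 8 feedings.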

Additional observations from a re-analysis of the deposited data

Results flagged for a closer look

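In 30 sets of 4 values from the 8 libraries at 4 feedings, 8 held a library set apart by Dixon's criterion. The sets overlap, and several concern contigs or lists chosen from these same values, so their number is not set against a chance rate. Where only 1 library of a group held counts, as for SmedASXL_003061 in the controls and SmedSXL_089239 under nhr-1 RNAi, the flag was fixed beforehand. Of the 8 flagged sets, 5 concern control replicate s1. It held 286.7 CPM of SmedSXL_010935, where the lowest control held 7.09 CPM. It held 21.9 CPM of SmedSXL_089239 against 0.573 CPM in the lowest control. In the contigs lower at both 8 and 11 feedings it stood at 59.8% of the control mean in the typical contig, and their sum without those called at 4 feedings was 32634 CPM, where the highest control reached 53065 CPM. It was also the 1 control with a count of SmedASXL_003061, at 0.107 CPM. In control replicate s3 the sum over all contigs lower at both later time points was 51047 CPM, below the other controls, which reached 57952 CPM. Under nhr-1 RNAi, replicate s2 held 1213 CPM summed over the 85 contigs that fell, against 367 CPM in the lowest replicate, and replicate s3 held the only counts of SmedSXL_089239, at 0.151 CPM. Values of the composition of these libraries stand in the results above, and their part in these differences was not tested.

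Effects also differed between numbers of feedings by edgeR's test of the difference. The effect differed from that at 4 feedings for 269 SmedSXL contigs at 6 feedings and for 982 at 8. Among the 85 contigs that fell at 4 feedings it was more negative for 5 at 6 feedings, 16 at 8 and 31 at 11. Over all tested contigs it was more negative for 1.09%, 4.08% and 8.71% at these time points. For SmedASXL_003061 the effect at 11 feedings differed from that at 4 by -7.38 on the log2 scale (edgeR adjusted p = 0.0095).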

How the results depend on the processing

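The 85 falls at 4 feedings became 131 with DESeq2, 145 with no filter on low counts, 55 without both libraries that stand apart (an alternative chosen after seeing the data), 5 among libraries named with s and 1 with only the groups compared, and ranged from 11 to 104 with 1 library left out. The 0 rises became 4 with DESeq2, 2 with no filter, 2 with a term for names with s, 1 with total counts alone and 1 without both libraries, and ranged from 0 to 1 with 1 library left out (1 without nhr-1 replicate s2 or control replicate 1). The 269 differences between 6 and 4 feedings became 984 with DESeq2, 1994 with limma's voom, 22 with total counts alone, 573 with a filter of 1 CPM in 4 libraries, 525 with SmedSXL contigs only, 588 without the 3 most abundant sequences, 17 without both libraries, 457 with the term for s names, and 0 with only the groups compared or only libraries named with s. They ranged from 7 to 502 with 1 library left out. At 4 feedings this was 488 without control replicate 1, 62 without control replicate s1, 502 without nhr-1 replicate s2 and 7 without nhr-1 replicate s3. At 6 feedings it was 19 and 74 without nhr-1 replicates 1 and s2, and 7 and 111 without control replicates 1 and s2. The 982 differences between 8 and 4 feedings became 2432 with voom, 576 with total counts alone, 590 among libraries named with s and 629 without both libraries, and ranged from 484 to 1135 with 1 library left out. They were 538 without nhr-1 replicate s3 of 4 feedings, 567 and 484 without nhr-1 replicates 1 and s1 of 8 feedings, and 510 without control replicate 1 of 8 feedings. The cause of these changes was not tested.

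With a replicate block by name, 24 contigs fell at 4 feedings, 22 of them among the 85, and 0 rose. The differences from 4 feedings then numbered 253 at 6 feedings and 1057 at 8. At 4 feedings none of the 4 libraries correlated best with its own name, so the names may not pair them. The median log2 fold change at 4 feedings of the contigs lower at 8 and 11 stayed below 0 in all 21 alternatives, at -0.68 to -0.23. Falls smaller than 2-fold were not called at this depth and spread.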

Other observations

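The 115 SmedSXL contigs with every nhr-1 library above every control library at 4 feedings (0.482% of those tested) were followed at later time points. At 6 feedings 7 of them were higher and 1 was lower, at 8 feedings 13 were higher and 2 lower, and at 11 feedings 25 were higher and 0 lower. Over all tested contigs 0.545%, 0.909% and 6.68% were higher at these time points, and 12.1%, 14.1% and 24.7% were lower. The 115 contigs were thus called higher more often, and lower less often, than all tested contigs, though most were not called.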
